A study of Copadichromis virginalis x Mchenga conophoros with 6 samples.

Results

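Activity-induced immediate early genes were followed as 5 rows of the deposited allele counts, egr1, egr3, ier2, npas4 and per1, in whole brains of male F1 hybrids of 2 Lake Malawi cichlids. The members were chosen by name, as genes whose transcription is known to rise with neuronal activity. All 5 were listed in every library, among 13212 genes listed in any library and 6844 tested. The hybrids came from Copadichromis virginalis, whose males dig pits, and Mchenga conophoros, whose males build sand castles, so each brain held 1 allele of each gene from each species. Males had been run through a pit digging paradigm (2 libraries), a castle building paradigm (2 libraries) or social isolation (2 libraries). The labels give no age, no time between behaviour and dissection, and no statement on whether replicates were separate animals. P-values therefore measure only the spread between these samples, which may be technical.

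Immediate early genes are transcribed within minutes of synaptic stimulation, from factors already present in the neuron, and need no new protein. Calcium entry and kinase cascades act on CREB, SRF and MEF2 at their promoters. Their transcripts are short-lived, so their level in a brain is known to depend on what the animal did shortly before death. In an F1 hybrid both alleles of a gene lie in the same nuclei and meet the same factors, so their reads are compared under a common stimulus. The share also depends on how reads were assigned to a species, and all libraries carry the same cross label. Effects of read assignment and of parent of origin on the shares were not tested.

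Libraries held 2155680 to 3294397 allele-assigned counts over 8829 to 11716 listed genes, and the members had 15 to 2163 counts a library. The lowest count listed on either allele was 6. In castle building the lowest total was 21, against 12 in the other libraries, so a missing row is not a count of 0. Counts of the castle building pair differed by less than the sampling noise, so the pair entered as 1 sample, the mean of both. The chi-square statistic divided by its degrees of freedom was 0.495 for them, 27.3 between the pit digging libraries and 20.4 between the isolated ones. Castle building has no replicate check of its own. Neuronal markers were listed in every library for 9 of 13 names, and summed to 3717 to 4767 CPM (counts scaled to a common library total, here without further normalisation). The 3 pituitary genes listed anywhere (pomc, cga and pou1f1, of 10 names) were listed only in pit digging replicate 2 and isolated replicate 2, at 736 and 1290 CPM. Oligodendrocyte markers, most of them mpz counts, summed to 970 and 972 CPM in castle building and to 4984 to 5884 elsewhere. Markers of microglia and leukocytes (3 of 8 names listed) summed to 79.4 to 80.0 in castle building and to 173 to 238 elsewhere. Astroglial markers (6 of 10) summed to 2633 to 5163. A gene that a library did not list adds nothing to its sums. Castle building listed 2 names for microglia and leukocytes, against 3 elsewhere, and 4 for oligodendrocytes, against 4 to 7 elsewhere. Erythrocyte markers (2 of 8) summed to 28.2 and 33.4 in pit digging and 48.7 in isolated replicate 1, and the other libraries listed none of them. Differences of this kind move with the paradigms and replicates below, and their part in the results was not tested. In whole-brain RNA, fewer cells of a type and less RNA per cell cannot be told apart.

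Levels of the members are CPM summed over both alleles and normalised by TMM, a scaling that evens out composition, and they cover only reads that could be assigned to a species. They are compared between libraries for each gene and not between genes.

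The zinc-finger factor egr1, which binds GC-rich promoters of synaptic and plasticity genes, was lowest in castle building. Its level was 276 and 529 CPM in the pit digging libraries, 91.8 and 70.3 in castle building, and 590 and 158 in isolation. The castle building sample lay below all 4 others. The pit digging values fell between the isolated ones, which were 3.74-fold apart. Against the castle building sample (80.6 CPM), pit digging averaged 402 ± 179 CPM (SD, n = 2), with a fitted log2 difference of 2.32 ± 0.99 (SE; edgeR quasi-likelihood test, adjusted p = 0.206).

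The related factor egr3, a target of sustained neuronal activity that acts with egr1 on shared binding sites, was highest in castle building. It stood at 16.1 and 39.4 CPM in pit digging, 51.0 and 50.4 in castle building, and 33.1 and 45.0 in isolation. Castle building lay above the other 4 samples, and pit digging overlapped with isolation. The counts behind these values were 46 to 105 a library, and the log2 difference of pit digging from castle building was -0.89 ± 0.63 (SE; adjusted p = 0.403, edgeR).

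The bHLH-PAS factor npas4, induced by calcium entry and known for adjusting inhibitory synapses on active neurons, was set apart by a single library. Its level was 53.2 and 136 CPM in pit digging, 90.8 and 91.2 in castle building, and 55.2 and 7.34 in isolation. Isolated replicate 2, with 15 counts, was 7.52-fold below replicate 1, whose level was close to that of pit digging replicate 1. The log2 difference of pit digging from isolation was 1.59 ± 1.02 (SE; adjusted p = 0.643, edgeR), and it was 0.77 without isolated replicate 2, 0.76 without pit digging replicate 2 and 3.67 without isolated replicate 1. Among all tested genes 117 had a larger positive difference in this contrast.

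The gene ier2, which encodes a small nuclear protein of the immediate early response, varied least over the samples together with egr3. It stood at 101 and 98.5 CPM in pit digging, 55.9 and 55.8 in castle building, and 153 and 64.6 in isolation. The pit digging libraries nearly coincided and lay between the isolated ones. Castle building was the lowest sample, and the log2 difference of pit digging from it was 0.84 ± 0.60 (SE; adjusted p = 0.405, edgeR).

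The clock gene per1, a transcriptional repressor of CLOCK and BMAL1 that light and neuronal activity also induce, varied most. Its level was 211 and 1152 CPM in pit digging, 27.2 and 18.4 in castle building, and 497 and 535 in isolation. The isolated libraries were alike and lay between the pit digging ones, while castle building lay far below all others. Pit digging averaged 682 ± 665 CPM (SD, n = 2) and isolation 516 ± 26.9 (SD, n = 2), against 22.8 CPM in the castle building sample. The log2 difference of pit digging from castle building was 4.90 ± 1.30 (SE; 95% interval 1.42 to 8.37; unadjusted p = 0.0163 and adjusted p = 0.0976 by edgeR across all genes). From isolation, castle building differed by -4.50 ± 1.28 (SE; adjusted p = 0.104, edgeR). Only 3 genes had a larger positive difference in the former contrast and 7 a larger negative one in the latter. Both contrasts share the castle building sample.

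**Figure D1:**
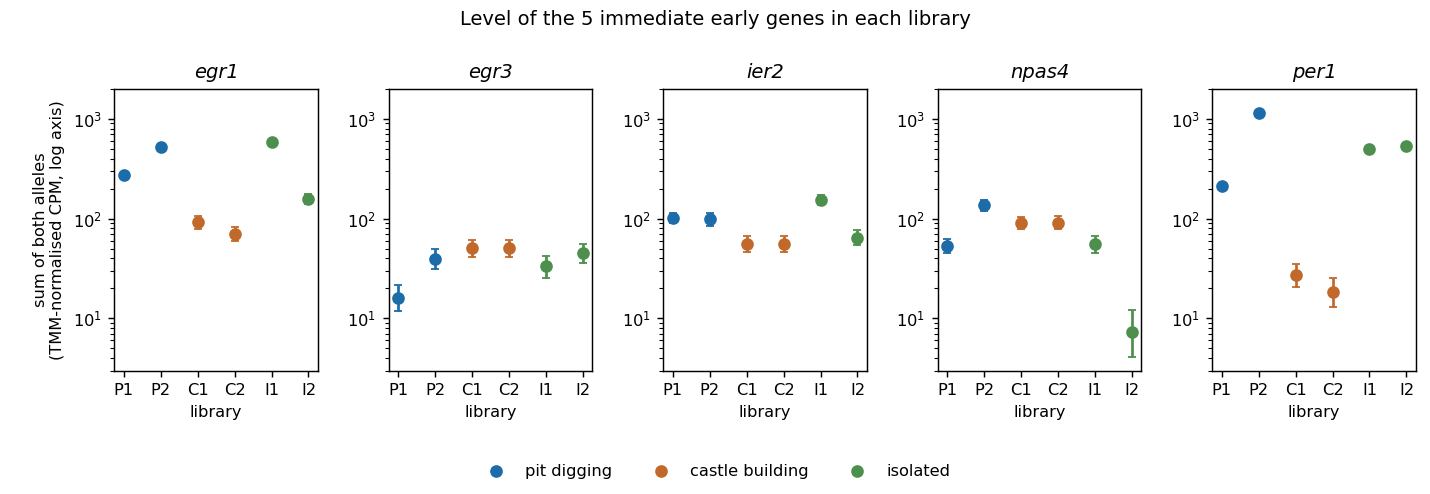
Sum of both alleles (TMM-normalised CPM, log axis) of each gene in the 6 libraries: pit digging (P1, P2), castle building (C1, C2) and isolated (I1, I2), with bars for exact 95% Poisson intervals, which cover counting error only. The castle building libraries lie lowest for egr1, ier2 and per1, and isolated replicate 2 lies lowest for npas4 at 7.34 CPM.

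By edgeR, 0 of 5 members passed an adjusted p of 0.05 for the sum in any contrast. The share of all genes called was 4.69% for pit digging against castle building, 6.72% for castle building against isolation and 0% for pit digging against isolation. At an unadjusted p under 0.05 there was 1 member, per1, in each contrast with castle building and 0 in the other. The share of all genes was 29.9% for pit digging against castle building, 30.5% for castle building against isolation and 9.88% in the other. With DESeq2, egr1 and per1 passed in both contrasts with castle building and 0 members in the other. Of all genes, DESeq2 called 841 for pit digging against castle building, 924 for castle building against isolation and 129 in the other. At an unadjusted p under 0.05 edgeR had 676 genes in pit digging against isolation. DESeq2 gave per1 adjusted p = 5.59e-07 against pit digging and 5.39e-06 against isolation, and egr1 0.0301 and 0.0378. Over all alternatives the adjusted p ran from 5.59e-07 to 0.142 and from 5.39e-06 to 0.162 for per1, and from 0.0301 to 0.409 and from 0.0378 to 0.383 for egr1. DESeq2 was not run with a library left out. With edgeR, the calls among all genes in both contrasts with castle building were lost when any pit digging or isolated library was left out. Such a fit has 1 sample in that paradigm and fewer residual degrees of freedom. The loss therefore does not show whether the percentages above rest on the values of any 1 library.

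The castle building sample stood below all 4 others for 3 of 5 members (egr1, ier2 and per1), against 33.4% of all tested genes, and above them for 1 (egr3), against 32%. The floor of the castle building tables and the paradigm cannot be told apart. Pit digging and isolated levels did not overlap for 0 of 5 members, against 43.4% of all genes. Over the 5 members the median log2 difference was 0.84 for pit digging minus castle building (all genes 0.05), -0.96 for castle building minus isolation (all genes -0.05) and 0.11 for pit digging minus isolation (all genes -0.00). In absolute size the members' medians were 0.89, 1.54 and 0.40, against 0.72, 0.75 and 0.34 over all genes.

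**Figure D2:**
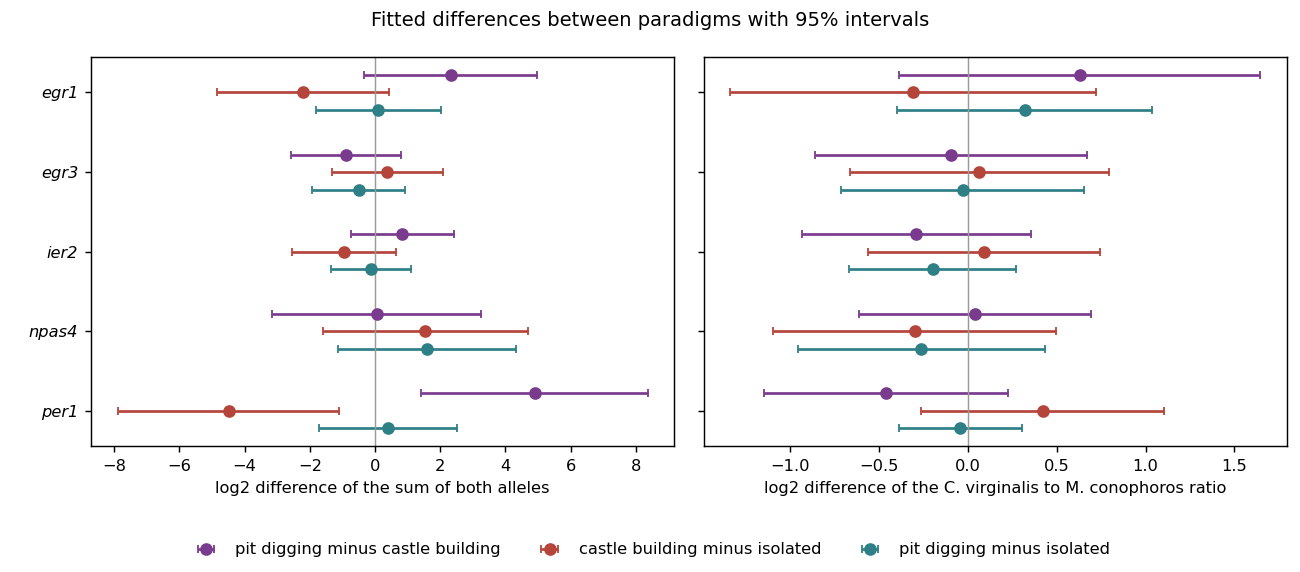
Fitted log2 differences between paradigms for the sum of both alleles (left) and for the ratio of the C. virginalis to the M. conophoros allele (right), with 95% intervals from the edgeR fit over 5 samples. Only the intervals of per1 in the contrasts with castle building leave out 0 on the left (1.42 to 8.37 for pit digging), and none does on the right. Intervals on the right can be too narrow.

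Libraries of the same paradigm differed widely for these genes. In the pit digging pair, per1 was 5.45-fold apart, more than 98.7% of tested genes, with npas4 at 2.55-fold (91.5%), egr3 at 2.45-fold (90.6%), egr1 at 1.92-fold (82.9%) and ier2 at 1.02-fold (4.92%). The median gene was 1.29-fold apart. In the isolated pair the order changed. There npas4 was 7.52-fold apart, more than 99.2% of genes, egr1 3.74-fold (96.4%), ier2 2.36-fold (89.2%), egr3 1.36-fold (62.1%) and per1 1.08-fold (21.5%), against a median of 1.23-fold. In pit digging, replicate 2 was the higher for egr1, egr3, npas4 and per1 and the lower for ier2. In isolation, replicate 2 was the lower for egr1, ier2 and npas4 and the higher for egr3 and per1. Replicate 2 of each pair was the library that listed the pituitary genes. It was the higher for egr3 and per1 and the lower for ier2 in both pairs, and for egr1 and npas4 the directions differed; the part of pituitary tissue was not tested. Over the 5 samples, the level of per1 spanned 50.5-fold, more than 99.8% of genes, npas4 18.5-fold (98.8%), egr1 7.32-fold (91.6%), egr3 3.17-fold (61.7%) and ier2 2.73-fold (53.0%), with 2.62-fold for the median gene.

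**Figure D3:**
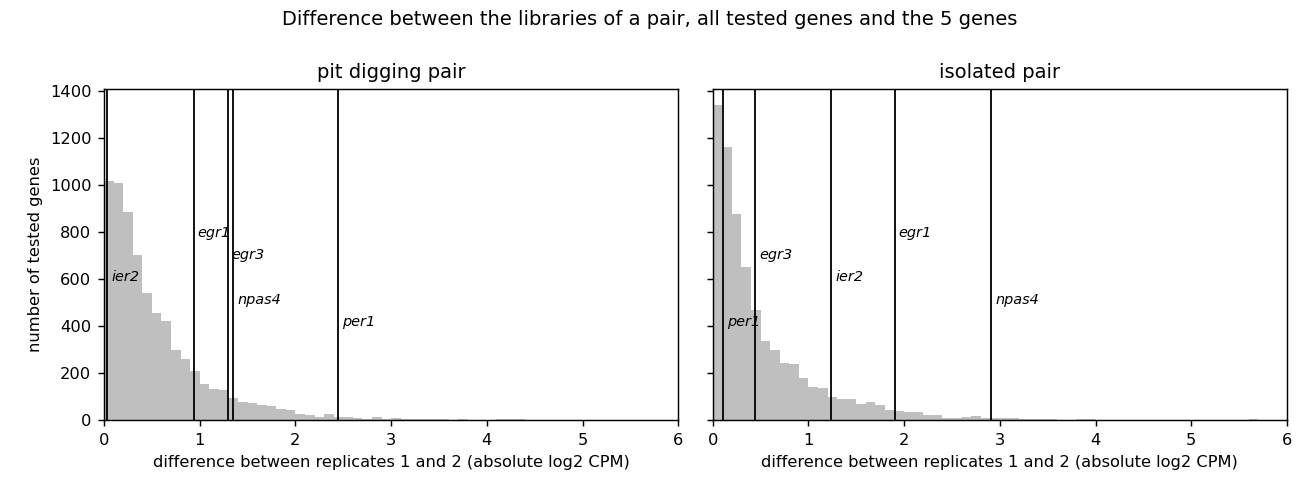
Absolute log2 CPM difference between replicates 1 and 2 of the pit digging pair (left) and the isolated pair (right): grey bars count the 6844 tested genes and black lines mark the 5 members. In pit digging per1 lies far in the tail at 5.45-fold, and in isolation npas4 does at 7.52-fold.

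Within the castle building pair, which otherwise agreed closely, egr1 and per1 were among the genes that differed most. The summed counts of egr1 were 189 and 145 (chi-square 5.86), and 113 of the 8704 genes listed in both libraries had a larger chi-square. Those of per1 were 56 and 38 (3.47), with 235 genes larger. Whether either difference exceeds counting error was not tested. By contrast, ier2 had the same 58 and 57 counts on its alleles in both libraries, npas4 187 and 188 in sum, and egr3 105 and 104.

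The allelic question was whether the alleles of these genes were read equally in the hybrid brain. For egr1 the C. virginalis allele gave more reads in 4 of the 5 samples, all but isolated replicate 2, with shares up to 67.0%. For per1 and egr3 it gave more in all 5, with shares of 50.2 to 59.6% and 50.8 to 53.3%. In castle building the share of per1 exceeded that of egr1 (59.6% against 54.2%). Shares of ier2 were 44.9 to 50.8% and those of npas4 45.9 to 53.3%. Library-wide, the C. virginalis share of all counts was 52.2 to 53.9%.

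In pit digging, 520 egr1 counts lay on the C. virginalis and 268 on the M. conophoros allele in replicate 1, a C. virginalis share of 66.0% (exact Clopper-Pearson 95% interval 62.6 to 69.3, counting error only), and 630 and 363 in replicate 2, 63.4% (60.4 to 66.4). In isolation the counts were 751 and 370 in replicate 1, 67.0% (64.2 to 69.7), and 159 and 163 in replicate 2, 49.4% (43.8 to 55.0). The castle building libraries had 108 and 81 counts, 57.1% (49.8 to 64.3), and 73 and 72, 50.3% (41.9 to 58.7). The pit digging libraries and isolated replicate 1 lay together above the library-wide share, and the intervals of the isolated pair did not overlap.

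The C. virginalis share of egr1 was higher in the 3 libraries of highest level, but not in step with level among them or among the others. The 3 with a level of 276 CPM or more had shares of 63.4 to 67.0%. Isolated replicate 2 and the castle building libraries, which count as 1 sample, had 158 CPM or less and shares of 49.4 to 57.1%. The interval of castle building replicate 1 (49.8 to 64.3) overlapped those of the 3 higher libraries. In the isolated pair, the C. virginalis allele was 5.07-fold higher in replicate 1 and the M. conophoros allele 2.44-fold. Over the 5 samples the C. virginalis allele spanned 43.7 to 395 CPM, 9.04-fold, and the M. conophoros allele 36.9 to 195 CPM, 5.28-fold. This division of the libraries is a description, since level and share come from the same counts. The share of egr1 ranged over 17.6 percentage points between samples, more than 76.7% of tested genes, whose median was 11.7.

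**Figure D4:**
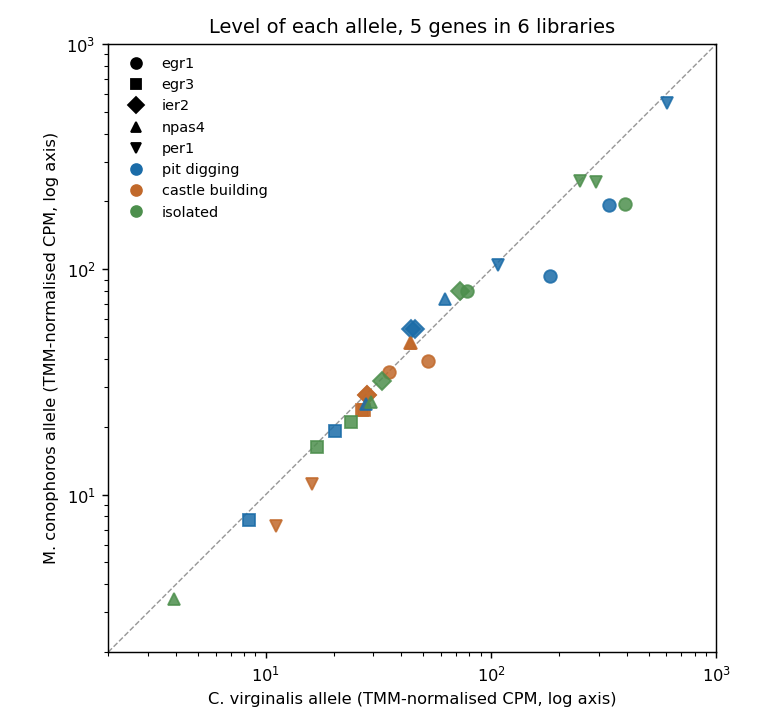
Level of the C. virginalis allele (x) against the M. conophoros allele (y) of each gene in each library, in TMM-normalised CPM on log axes; shapes mark genes, colours mark paradigms, and the dashed line marks equal levels. The pit digging libraries and isolated replicate 1 of egr1 lie below the line (shares of 63.4 to 67.0%), while its castle building libraries, isolated replicate 2 and the other 4 genes follow it more closely.

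Ratios over all samples are the mean of the paradigms, each with equal weight. By edgeR, the ratio of the alleles of egr1 was 0.56 ± 0.16 on the log2 scale (SE) over all samples, with unadjusted p = 0.0102 and adjusted p = 0.0934. In pit digging alone it was 0.87 ± 0.21 (SE; 95% interval 0.38 to 1.37; adjusted p = 0.0584), in castle building 0.24 ± 0.38 (adjusted p = 0.957) and in isolation 0.55 ± 0.22 (adjusted p = 0.307). These values moved with the isolated replicates. Without replicate 2 the ratio over all samples was 0.71, with adjusted p = 0.0155 (0.0115 to 0.315 over all alternatives), and without isolated replicate 1 the isolated ratio was -0.04. With castle building left out, an alternative chosen after seeing the data, the ratio over all samples was 0.71, with adjusted p = 0.0263. The pit digging ratio is fitted from the pit digging libraries, so leaving out an isolated replicate could not move it from 0.87 and does not test it. Its adjusted p also draws on the spread of the other samples, and ran from 0.0113 to 0.332 over all alternatives (edgeR or DESeq2). The ratio of egr1 was not shown to differ between paradigms: pit digging exceeded castle building by 0.63 ± 0.43 (SE, log2; adjusted p = 0.758) and isolation by 0.32 ± 0.31 (adjusted p = 0.969).

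For per1 the share was 50.7% in pit digging replicate 1 and 52.5% (50.3 to 54.6) in replicate 2, from 2163 counts. It was 50.2% and 54.5% (51.5 to 57.5) in the isolated replicates. The castle building libraries had 58.9% (45.0 to 71.9) and 60.5% (43.4 to 76.0), from 56 and 38 counts. The castle building sample was the highest of the 5, with intervals that held both an equal share and the values of the other paradigms. Over all samples the log2 ratio was 0.26 ± 0.10 (SE, with adjusted p = 0.278 by edgeR), and it ran from 0.12 to 0.30 over all alternatives. It averages 0.09 in pit digging, 0.56 in castle building and 0.14 in isolation with equal weight, so castle building adds most to it. Although the level of per1 spanned 50.5-fold, its alleles spanned much the same range, 44.5-fold for C. virginalis and 59.3-fold for M. conophoros.

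For npas4 the share was 52.6% and 45.9% in pit digging, 48.1% and 48.4% in castle building, and 53.3% in both isolated libraries, where 8 of 15 counts gave an interval of 26.6 to 78.7 in replicate 2. Every interval held an equal share. In the isolated pair each allele was 7.52-fold lower in replicate 2. The log2 ratio over all samples was 0.00 ± 0.12 (SE; 95% interval -0.28 to 0.29; adjusted p = 0.998, edgeR).

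The share of ier2 was 45.8% and 44.9% in pit digging, 50.4% in both castle building libraries, and 47.6% and 50.8% in isolation. It was the member with the lowest shares, and the pit digging values lay below the isolated ones. Every interval held an equal share, and the log2 ratio was -0.27 ± 0.14 in pit digging (SE; adjusted p = 0.392) and -0.10 ± 0.10 over all samples (adjusted p = 0.689, edgeR).

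The share of egr3 stayed between 50.8 and 53.3% in all libraries. Its range of 2.54 percentage points over the samples was larger than that of only 1.30% of tested genes. Every interval for counting error was far wider than this range and held an equal share. It was 36.9 to 67.1% in pit digging replicate 1 and 43.3 to 63.1% in castle building replicate 1. The small range therefore does not show that the share of egr3 is steadier than that of other genes. The log2 ratio over all samples was 0.14 ± 0.13 (SE; 95% interval -0.16 to 0.43; adjusted p = 0.687, edgeR).

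**Figure D5:**
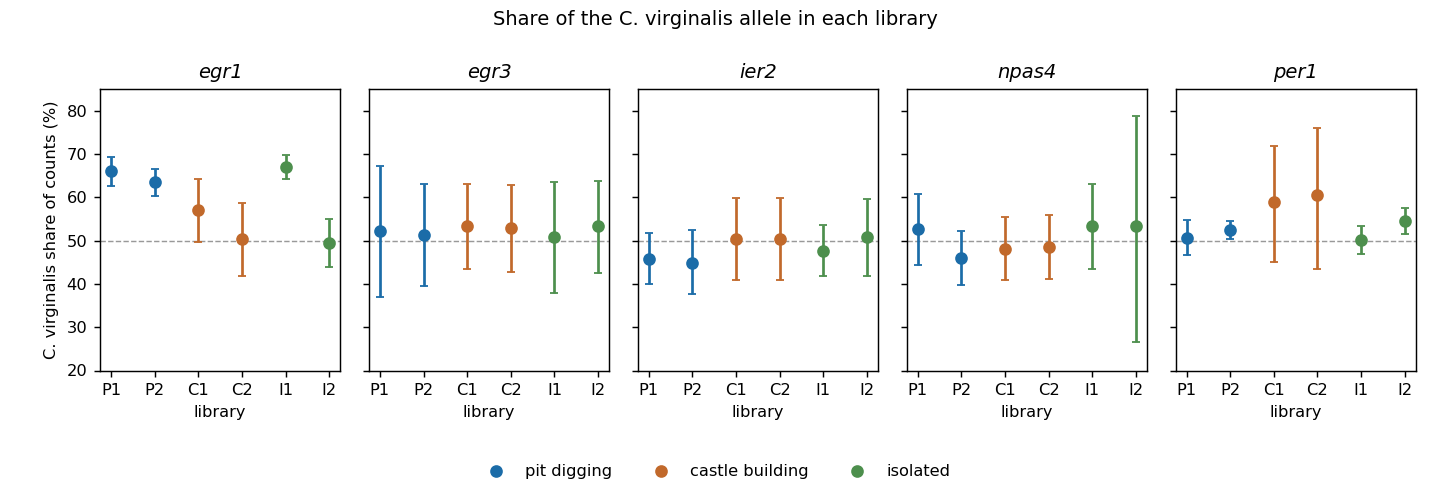
Share of counts on the C. virginalis allele (%) of each gene in the 6 libraries, named as P, C and I with the replicate number for pit digging, castle building and isolated; bars are exact 95% binomial intervals for counting error, and the dashed line marks 50%. Shares of egr1 are 63.4 to 67.0% in the pit digging libraries and isolated replicate 1, while egr3 keeps between 50.8 and 53.3%.

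By edgeR, 0 of 5 members passed over all samples (8.21% of all genes called), in pit digging (6.59%), in castle building (1.71%) or in isolation (4.4%), and 0 passed with DESeq2. At an unadjusted p under 0.05 there was 1 member, egr1, over all samples, in pit digging and in isolation, and 0 in castle building. The shares of all genes at that p were 19.1% over all samples, 17.9% in pit digging, 14.3% in isolation and 9.66% in castle building. For the difference in ratio between paradigms, 0 of 5 passed in pit digging against castle building (0.161% of all genes called), castle building against isolation (0.263%) and pit digging against isolation (0%), with 0 at an unadjusted p under 0.05 and 0 with DESeq2. In the last contrast 387 of all genes had an unadjusted p under 0.05 and 1 passed with DESeq2. The percentages changed when single libraries were left out, and leaving out a pit digging or isolated library also lowers the residual degrees of freedom. Over all samples 293 genes passed without isolated replicate 2 and 342 without replicate 1, against 562. In pit digging 178 passed without pit digging replicate 1, against 451. In isolation 69 and 80 passed without isolated replicates 1 and 2, against 301, and in castle building 51 and 48, against 117. Between pit digging and castle building 43 passed without pit digging replicate 2, 17 without castle building replicate 1 and 7 without either isolated replicate, against 11. Between castle building and isolation 30 and 32 passed without pit digging replicates 1 and 2, and 6 and 4 without isolated replicates 1 and 2, against 18. Between pit digging and isolation 3 and 12 passed without pit digging replicates 1 and 2 and 1 without isolated replicate 1, against 0.

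Pit digging and isolated shares did not overlap for 2 of 5 members (ier2 and npas4, both lower in pit digging), against 34.2% of all genes. The castle building sample had the highest share for 2 of 5 (egr3 and per1), against 19.7%, and the lowest for 0, against 26.6%. The median log2 ratio of the members over all samples was 0.14, beside 0.05 over all genes.

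Patterns were compared over the 5 samples by the root mean square difference of log2 CPM centred on each gene's mean, among 3555 genes with a symbol and a mean total of at least 50. Nearest to egr1 were fam120c (0.22), zdhhc18 (0.26) and ipp (0.34). The level of fam120c was 145 and 228 CPM in pit digging, 37.4 in castle building, and 223 and 92.1 in isolation, the order that egr1 had except that pit digging replicate 2 stood above isolated replicate 1. Nearest to egr3 were kcne2 (0.15), atxn2 (0.16) and mmp17 (0.19), and nearest to ier2 usp11 (0.14), rab40c (0.15) and atp9b (0.16). For npas4 the nearest were msantd4 (0.45), sept3 (0.50) and tspan4 (0.55), and for per1 nvl (0.71), znf318 (0.72) and phka2 (0.72), so these members had no gene as close. The difference is not scaled to a gene's own range, which among the members was widest for per1 and npas4. None of the 5 was among the nearest of another. The closest members were egr1 and ier2 (0.64) and the farthest npas4 and per1 (2.64).

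Other activity-regulated genes were sparse in these tables. Of 54 names, 14 were listed in any library and 4 were tested, homer1, btg1, klf6 and sgk1, of which 0 passed for the sum in any contrast. Their median log2 difference was -0.26 for pit digging minus castle building (all genes 0.05), 1.06 for castle building minus isolation (-0.05) and -0.03 for pit digging minus isolation (-0.00). The antiproliferative gene btg1 had 75.6 and 43.7 CPM in pit digging, 281 and 277 in castle building and 64.2 and 69.0 in isolation, a log2 difference of -2.22 ± 0.40 between pit digging and castle building (SE; adjusted p = 0.0566, edgeR). It was the gene of this list that passed for the allelic ratio, at 0.84 ± 0.11 over all samples (SE; adjusted p = 0.00398) and 1.11 ± 0.20 in castle building (adjusted p = 0.0427). Its C. virginalis shares were 55.7 to 69.1% in the 6 libraries. The serum- and glucocorticoid-regulated kinase sgk1 stood at 235 and 185 CPM in pit digging, 183 and 177 in castle building, and 51.0 and 97.4 in isolation (2.82-fold higher in pit digging than in isolation, adjusted p = 0.357 by edgeR), and the Krüppel-like factor klf6 differed by -0.28 ± 0.23 in that contrast. The AP-1 subunit fosb was listed only in castle building, with 87 and 86 counts. Another, fosl2, was listed in pit digging (98 and 308 counts) and isolated replicate 1 (29). The nuclear receptor nr4a3 had 42, 39, 27, 27 and 15 counts in pit digging 1 and 2, castle building 1 and 2, and isolated replicate 2.

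Among 17 tested genes (of 35 names) for kinases and factors that act upstream of immediate early genes, 2 were higher and 1 was lower in pit digging than in castle building, and 14 did not pass (edgeR), beside 4.69% of all genes called in that contrast. The SRF coactivator mkl2 was higher in pit digging by 1.95 ± 0.29 on the log2 scale (SE; adjusted p = 0.0455), and the factor mef2d was lower by -2.74 ± 0.41 (adjusted p = 0.0454). Castle building differed from isolation by -1.90 for mkl2 and 3.67 for mef2d, and 0 genes of the list passed between pit digging and isolation, where mef2d differed by 0.94 ± 0.36, mef2a by -1.07 ± 0.49 and the kinase camkk1 by 0.65 ± 0.35. The list's medians were 0.37, -0.34 and -0.03, against 0.05, -0.05 and -0.00 over all genes. Calls of list genes for the allelic ratio were made in this fit alone. Every call for the sum was lost without any 1 of the pit digging or isolated libraries, in fits with fewer residual degrees of freedom.

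Of 8 names for partners of EGR and NPAS4 proteins, arntl and sp3 were tested. Neither passed in any contrast, and their log2 differences of pit digging from isolation were 0.64 ± 0.69 and 0.11 ± 0.64 (SE). The NPAS4 partner arnt2 was listed in 5 of 6 libraries with 117 to 469 counts, and the EGR corepressor nab1 in isolated replicate 2 with 41.

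Of 29 clock names 9 were tested, and 0 passed for the sum or the allelic ratio over all samples (edgeR). The paralogue of per1, per2, is a repressor of the same loop. Among the libraries that listed it, per2 was highest in castle building, where per1 was lowest. It was listed with 31 and 88 counts in pit digging, 655 and 654 in castle building and 52 in isolated replicate 2, which were 10.9, 46.9, 318, 317 and 25.5 CPM. Outside castle building, pit digging replicate 2 was the highest and replicate 1 the lowest of the 3 libraries that listed per2, the order that per1 had in them. The activator clock was also highest in castle building, at 151 and 153 CPM, against 33.3 and 7.99 in pit digging and 8.42 in isolated replicate 1, while its partner arntl had 218 and 54.3, 44.7 and 41.2, and 93.6 and 81.8 CPM in pit digging, castle building and isolation. Both per2 and clock were added after their values were seen, and neither was tested. Among all tested genes, 32% had their highest level in castle building. How the counting treated reads shared by gene copies is not given, so levels of paralogues are uncertain. The output factor hlf differed from isolation by -1.49 ± 0.36 in pit digging (SE; unadjusted p = 0.0112 and adjusted p = 0.318, edgeR across all genes) and the repressor bhlhe40 by 0.56 ± 0.29. The median of the 9 was 0.71 for pit digging minus castle building, -0.80 for castle building minus isolation and -0.35 for pit digging minus isolation.

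Of the marker genes, the neuronal genes slc17a6 and stmn2 and the myelin gene mpz were lower in castle building than in either other paradigm (log2 1.96, 3.17 and 2.95 for pit digging minus castle building and -2.48, -3.07 and -2.69 for castle building minus isolation, edgeR). The other neuronal markers did not pass for the sum, and some were higher in castle building. There elavl3 had 964 CPM and elavl4 781, against means of 431 and 264 in pit digging and 413 and 292 in isolation. Of the 9 neuronal markers 5 had a positive log2 difference for pit digging minus castle building, with a median of 0.02 (all genes 0.05). Over all samples the ratio passed for 5 of 9 neuronal markers, beside 8.21% of all genes. These were syt1, elavl3, elavl4, gad2 and stmn2, with log2 ratios of 0.31 to 0.90 towards C. virginalis. Those of slc1a2, ndrg2 and mpz passed too (0.39 to 0.52). Mean C. virginalis shares of gad2 were 50.3% in pit digging and 50.1% in isolation, against 65.2% in castle building. In castle building syt1 had 49.1%, stmn2 44.0% and slc1a2 51.5%, and ndrg2 had 50.5% in isolation. Shares of elavl3 and elavl4 were 58.5 to 65.7% as means of the paradigms. Beyond these genes, the ratio of mbp passed in pit digging (1.55), where its C. virginalis shares were 52.3 and 80.0% in the 2 samples. That of cd74 passed in isolation (3.64), with shares of 92.3 and 92.9%. The ratio of stmn2 was 2.16 lower in castle building than in isolation (log2 -2.16).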

How the data were processed

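Trizol RNA of whole brains went into Illumina libraries, per the labels' protocols. What the authors deposited, per the file headers, is a count on each of the 2 alleles of a gene. The deposited log2 ratio equals the log2 of those counts' ratio to within 5.33e-15. The submitters' processing notes name STAR 2.4. The build, annotation, informative sites, strandedness and allele counter they used are not stated in these sources. Symbols are those of the deposited tables, and no positions are given.

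Members and lists were chosen with earlier results of these data known. Genes listed in all 6 tables with a mean total of at least 20 were fitted with edgeR 4.0.16 (R 4.3.3): allelic counts with a term for each sample and an allele term in each paradigm, and sums with TMM and paradigm, each with 2 residual degrees of freedom. Castle building was 1 sample, the rounded mean of its libraries, assumed to vary like the others. The allelic ratio over all samples is the mean of the paradigms' allele terms, so this sample weighs as much as either pair. P-values were adjusted by Benjamini-Hochberg over 6844 genes. SE is the log2 value divided by the square root of F, and 95% intervals use the fit's degrees of freedom. For allelic ratios some p-values were larger than these imply, so SE and intervals can be too narrow. For per1 over all samples the interval was 0.0195 to 0.505, while the unadjusted p was 0.0566 (edgeR). Both fits were tested on simulated data. Alternatives were DESeq2 1.42.0, other scalings and filters, single alleles, missing rows as 0, castle building libraries apart or left out, a replicate block and each library left out.

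From each list, genes past the threshold and the 3 with the smallest p between pit digging and isolation for the sum are named; fosb, fosl2, nr4a3, arnt2, nab1, per2 and clock were added after their values were seen. Some genes that this rule selects are not reported here.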

Additional observations from a re-analysis of the deposited data

How the results depend on the processing

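Over 50 member values, 745 recomputations kept direction and call in 704, passed the threshold anew in 16 and turned direction in 25, in 16 values that did not pass in any of them. With the filter raised to a mean total of 100, egr3 dropped out. With TMM between alleles the log2 allelic ratio was -0.073 for npas4 over all samples and -0.035 for ier2 in castle building. For npas4 between pit digging and castle building, the sum differed by -0.036 without TMM, -0.11 at the filter of 100 and -0.0021 on the C. virginalis allele alone. The causes were not tested. Depth limits npas4 in isolated replicate 2 (15 counts) and per1 in castle building (38 and 56).

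Leaving out 1 library gave, for log2 allelic ratios, -0.051 to 0.079 for npas4 over all samples, -0.24 to 0.15 for npas4 in pit digging, -0.036 to 1.02 for egr1 and -0.14 to 0.044 for ier2 in isolation. Between pit digging and castle building npas4 ran from -0.13 to 0.26. Between castle building and isolation egr1 ran from -0.78 to 0.28 and ier2 from -0.019 to 0.16. Between pit digging and isolation egr1 ran from -0.15 to 0.91, egr3 from -0.091 to 0.051 and per1 from -0.17 to 0.085. For sums, npas4 between pit digging and castle building ran from -0.79 to 0.56, and between pit digging and isolation egr1 ran from -0.55 to 1.35, egr3 from -1.29 to 0.0032, ier2 from -0.61 to 0.62 and per1 from -1.30 to 1.15.

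Genes called for the allelic ratio over all samples (562) were 263 with DESeq2, 1093 with the castle building libraries as separate samples and 293 to 618 with 1 library left out. In pit digging (451) they were 175, 709 and 178 to 449, in castle building (117) 58, 619 and 48 to 151, and in isolation (301) 134 with DESeq2 and 69 to 382. For the difference between pit digging and castle building (11) they were 20 with TMM between alleles, 7 with missing genes as 0, 273 with separate castle building libraries and 7 to 43. Between castle building and isolation (18) they were 8 at the filter of 100, 8 with missing genes as 0, 209 and 4 to 32. Between pit digging and isolation (0) they were 1 with DESeq2 and 0 to 12. For sums, pit digging against castle building (321, 224 higher) had 841 with DESeq2, 1428 with missing genes as 0 (1222 higher), 2648 with separate libraries (1536 higher) and 0 to 331. Castle building against isolation (460) had 924, 1454, 2734 and 0 to 469. Pit digging against isolation (0) had 129 with DESeq2, 169 with separate libraries and 0 with any 1 library left out. Treating near-identical castle building libraries as separate samples lowers the estimated spread.

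Replicate numbers showed no pairing of the pit digging and isolated samples over all genes together, although replicate 2 of both listed the pituitary genes. Castle building was not part of this check. Differences of replicate 2 from 1 correlated across genes at -0.0953 between pit digging and isolation for log2 CPM and -0.0323 for the allelic ratio. With a replicate block, 31 genes were called for the allelic difference between pit digging and castle building and 3 between pit digging and isolation. For sums the block left 0 genes in either contrast with castle building. The block gave egr1 adjusted p = 0.0287 over all samples and 0.0146 in pit digging (edgeR), npas4 an allelic ratio of -0.025 and per1 a sum difference of -0.060 between pit digging and isolation. The block with separate castle building libraries called 1113 genes over all samples, 722 in pit digging, 624 in castle building and 465 in isolation, 243, 200 and 4 for the differences in ratio, and 2118 (1257 higher) and 2196 for the sums with castle building. It gave npas4 an allelic ratio of -0.013.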
